A study of Mus musculus with 18 samples.

Results

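The 62 splicing factor genes described here are those whose symbol starts with Srsf, Hnrnp, Sf3a, Sf3b, U2af, Prpf, Mbnl or Rbfox, followed by a digit except in the Hnrnp and U2af names, out of 24072 genes in the count table of the spleen libraries. They were chosen by name and not by a cut on any measured value, with earlier results of these data known. They comprise 11 genes of SR proteins, 20 of heterogeneous nuclear ribonucleoproteins (hnRNPs), 12 of U2 snRNP subunits and U2AF, 13 of PRPF proteins and 6 of MBNL and RBFOX proteins. The count table that holds both BFU-E populations has 10702 genes and lists 59 of the 62, without Rbfox1, Rbfox3 and Srsf12.

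RNA was sequenced from 4 sorted populations of B6SJL mice in 3 libraries each. Multipotent progenitors (MPP, named for Sca1 positivity in the labels), burst-forming erythroid progenitors (BFU-E, Sca1 negative) and colony-forming erythroid progenitors (CFU-E, CD9 negative) came from spleens at day 8 after lethal irradiation and a transplant of unfractionated bone marrow. BFU-E (Sca1 negative) also came from bone marrow (BM) at steady state, without irradiation or transplant. Cells bearing B220, CD4, CD8, Gr-1 or Ter-119 were removed before flow sorting, and the steady-state sort used Qdot655 where the spleen sorts used Qdot605. Tissue, irradiation and transplant, and this stain change together between spleen and BM BFU-E, so their parts cannot be told apart. No label says that the libraries came from separate animals, so a p-value measures the spread between libraries, which may be technical.

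Splicing removes introns from the primary transcript. U2AF binds the end of the intron, the SF3A and SF3B subunits of the U2 snRNP settle on the branch point, and the PRPF proteins, mostly of the U4/U6 and U5 particles and the Prp19 complex, carry the spliceosome through its activation. SR proteins bind exons and mostly favour their inclusion, hnRNPs bind exons and introns and often oppose it, and MBNL and RBFOX proteins switch exons by tissue and stage. Red cell precursors are known for stage-specific exon switches and intron retention, and human SF3B1, SRSF2, U2AF1 and PRPF8 are recurrently mutated in myelodysplastic syndromes, in which red cell production fails.

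The spleen libraries held 5937778 to 13197159 counts and the BM libraries 6758871 to 9463498. Counts of Rn45s, the precursor of ribosomal RNA, made up 8.01% to 22.6%, with the 3 highest shares in the MPP libraries (16%, 16.7% and 22.6%). Among the genes of the BFU-E table, 5.81%, 1.53% and 15.3% were at 0 counts in BM libraries 1, 2 and 3, where the share in spleen BFU-E libraries was 0.42% to 0.738%. The 14 erythroid markers summed to 640 to 713 CPM (counts scaled to a common library total) in MPP, 645 to 705 CPM in BFU-E and 2390 to 2430 CPM in CFU-E. The 8 megakaryocyte markers summed to 1110 to 1350 CPM in MPP, 2210 to 2520 CPM in BFU-E and 93.4 to 100 CPM in CFU-E. The 10 myeloid markers summed to 125 to 567 CPM in MPP, 693 to 821 CPM in BFU-E and 25.9 to 87.2 CPM in CFU-E. The 9 lymphoid markers in the table, of 11 listed, summed to at most 76.3 CPM and the 7 mast cell markers to at most 36.1 CPM in any spleen population. The 9 stem cell markers summed to 718 to 869 CPM in MPP, 457 to 480 CPM in BFU-E and 113 to 160 CPM in CFU-E. At 0 counts were Slc4a1 in MPP, and among 8 macrophage markers Adgre1, C1qa, C1qb, C1qc and Cd5l in MPP, C1qa, C1qb and Vcam1 in BFU-E and Adgre1, C1qb, C1qc, Cd5l and Vcam1 in CFU-E. These 8 markers summed to at most 23 CPM in any spleen library. In these bulk samples fewer cells of a type and less RNA per cell cannot be told apart, and the part of these other cell types in any result below was not tested.

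As a group these genes were strongly transcribed. Per length, in the authors' RPKM (reads per kilobase of exon scaled to mapped reads), their median level over the spleen libraries was 42.3, against 0.371 over all genes, and among genes with a mean of at least 1 RPKM it was 44.3 for 58 of the 62, against 7.77 for 10570 genes. The hnRNP genes had a median of 53.6 RPKM (2.46 to 341), the SR genes 55.8 (0.0716 to 128), the U2 and U2AF genes 44.4 (6.01 to 141), the PRPF genes 17.5 (4.7 to 71.3) and the MBNL and RBFOX genes 5.33 (0.00167 to 86.7).

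The highest level per length belonged to Hnrnpu, which encodes a scaffold protein of nuclear RNA and chromatin. It had 374, 303 and 315 RPKM in MPP, 327, 311 and 318 RPKM in BFU-E, 378, 348 and 329 RPKM in CFU-E, and 335, 282 and 337 RPKM in BM BFU-E. Hnrnpa2b1 averaged 327 RPKM over the 12 libraries (261 to 377), Hnrnpab 299 RPKM (206 to 400), Hnrnpm 197 RPKM (150.0 to 221) and Sf3b2, an SF3B subunit, 139 RPKM (116 to 160). The ranges of Hnrnpu, Hnrnpa2b1 and Hnrnpab overlap, so their order is not settled at this spread. At the other end were Rbfox1, Rbfox3 and Srsf12, none of which reached a mean of 50 counts. Rbfox1, known from neurons and muscle, had 0 counts in every MPP library, 8, 0 and 0 in BFU-E and 0, 1 and 19 in CFU-E. Rbfox3, a neuronal gene, had a single count in BFU-E library 3 and 0 in the other 8 spleen libraries, and Srsf12 had 22, 0 and 1 counts in MPP, 0 in BFU-E and 0, 11 and 6 in CFU-E.

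Many splicing factor genes have processed pseudogenes, and reads from near-identical copies may be lost or shared between them. For 12 of the 62 genes, at least 50% of the transcript had a match of 300 bases or more at 95% identity elsewhere in the genome, led by Hnrnpa3 (99.8%, at 31 places), Srsf10 (98.9%), Hnrnpa1 (98%, at 14 places), U2af1 (97.6%) and U2af2 (97.5%). The others were Hnrnph2, Sf3b4, Hnrnpf, Srsf5, Hnrnpk (66.1%), Srsf3 (64.4%) and Hnrnpc (55.4%). These 12 genes had a median of 12.4 RPKM (2.46 to 75.5), against 45.7 RPKM for the other 50. Their levels and changes are therefore uncertain.

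**Figure D1:**
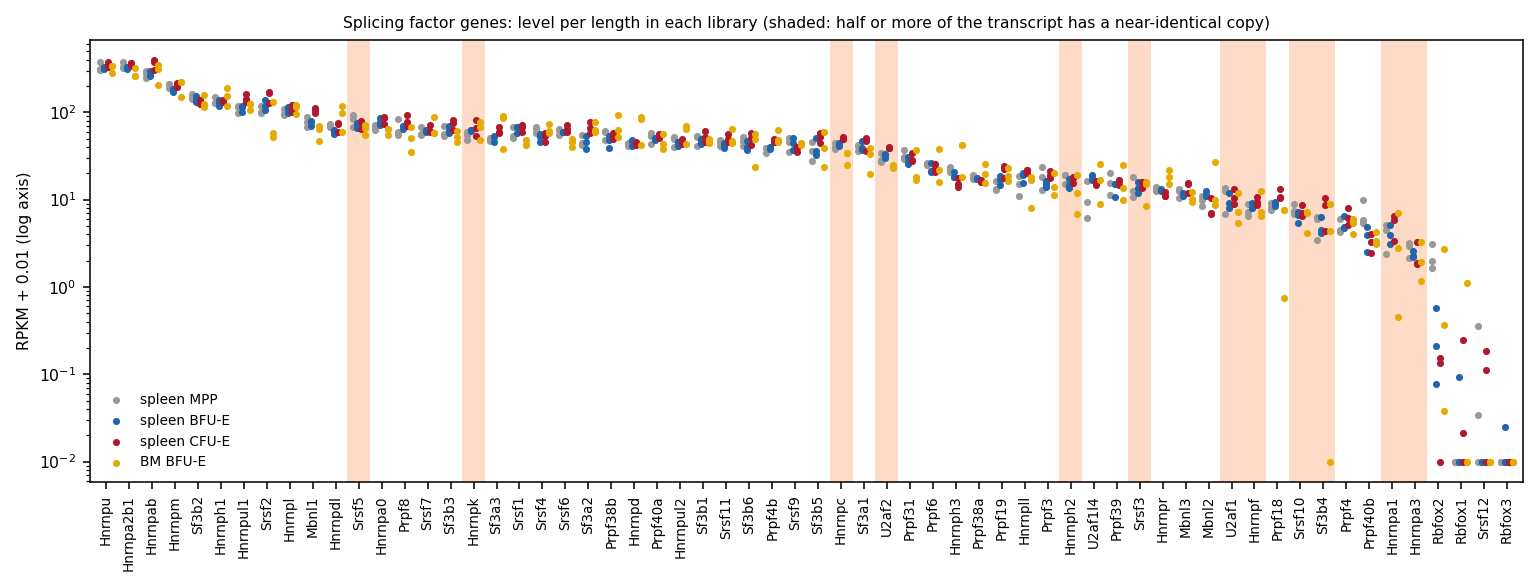
Level of each of the 62 genes in each library, as RPKM + 0.01 on a log axis, with genes ordered by their mean; the BM values come from the authors' table of the 6 BFU-E libraries, which was normalised apart from that of the spleen libraries, and shaded genes have 50% or more of their transcript in a near-identical copy. Hnrnpu, Hnrnpa2b1 and Hnrnpab lead in all 4 populations, and Rbfox1, Srsf12 and Rbfox3 sit at the bottom, and the shaded genes fall mostly in the lower part of the order.

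Spleen CFU-E were first set against spleen BFU-E, populations that also differ in the megakaryocyte and myeloid markers given above. Here 8 of the 59 genes with enough counts rose in CFU-E (Sf3a2, Mbnl1, Hnrnpab, Hnrnpul1, Prpf19, Srsf2, Srsf11 and Mbnl3) and Mbnl2 fell. Gene levels are given as CPM on library sizes scaled by TMM, which sets the bulk of genes equal between libraries. The changes were small: the rises were 0.31 to 0.56 on the log2 scale and the fall was 0.51. With edgeR and an adjusted p under 0.05, 9 of 59 were called (15.3%), where 21.1% of all 10166 genes tested were called, 9.17% higher and 11.9% lower. Their median change was 0.20 (log2), against 0.00 for all genes, and 49 of 59 lay above 0, where 49.8% of all genes did. In 28 genes every CFU-E library lay above every BFU-E library (18.2% of all genes) and in 4 every CFU-E library lay below (19.3% of all genes). Without BFU-E library 2 the count was 4, where 1670 of 10175 genes were called in all. Without BFU-E library 1 or 3 it was 5, where 1695 of 10131 and 1630 of 10127 genes were called. With all libraries 2145 of 10166 genes were called. DESeq2, a fit of the 2 populations alone and a fit of protein-coding genes each called 14, where they called 23.7%, 23.5% and 21.9% of all genes. A change under 0.5 in size was found in 91.5% of the 59 genes and in 68.7% of all genes.

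**Figure D2:**
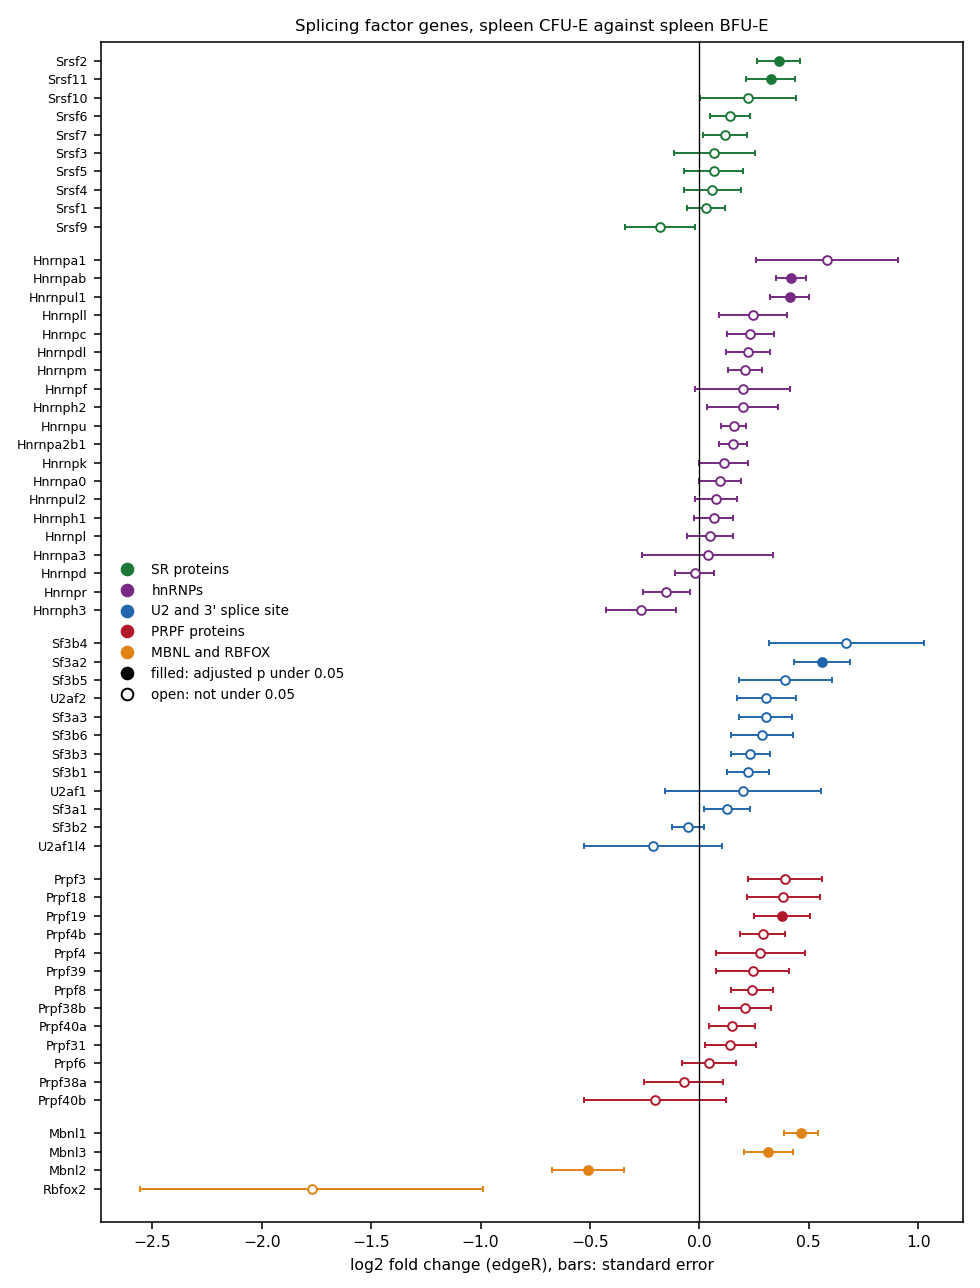
Change of each tested gene in spleen CFU-E against spleen BFU-E, as log2 fold change with its standard error (3 libraries each), by class; filled points passed an adjusted p of 0.05. Most points lie between 0 and 0.5, the called ones reach 0.56 (Sf3a2), and Mbnl2 and Rbfox2 lie farthest below 0.

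Of the 12 genes that recognise the branch point and intron end, only Sf3a2 was called in this comparison. Sf3a2, a subunit of the SF3A complex (chromosome 10, 80798735 to 80804922, mm10), had 223, 203 and 192 CPM in CFU-E, against 158, 119.5 and 141 CPM in BFU-E. All 3 CFU-E libraries lay above all 3 BFU-E libraries (log2 fold change 0.56, SE 0.13, edgeR adjusted p = 0.00263). Sf3b1, the SF3B subunit that holds the branch point, had 658, 595 and 574 CPM in CFU-E, against 543, 512 and 510.3 CPM in BFU-E. The groups did not overlap, yet its change of 0.22 (SE 0.097) missed the threshold with an edgeR adjusted p of 0.115. U2af1, the subunit that reads the last intron bases, had 16.3, 14.7 and 24.1 CPM in CFU-E, against 18.9, 13.8 and 15.2 CPM in BFU-E, with overlapping groups and no call (adjusted p = 0.766). Its change of 0.20 became −0.04 without CFU-E library 3. Sf3b2, the SF3B gene with the highest level, had 777, 811 and 796 CPM in CFU-E, against 863, 796 and 810.5 CPM in BFU-E, and its groups overlapped (−0.05). The uncalled genes of this class ranged from −0.21 (U2af1l4, a U2AF relative) to 0.67 (Sf3b4, most of whose transcript has a copy).

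Among the PRPF genes, 1 of 13 was called. Prpf19, the ubiquitin ligase at the core of the Prp19 complex, had 256, 254 and 220.5 CPM in CFU-E, against 199.7, 175 and 188 CPM in BFU-E, without overlap. Its log2 fold change was 0.38 (SE 0.13, edgeR adjusted p = 0.0387), and the adjusted p was 0.058 to 0.151 without BFU-E library 1, 2 or 3 or CFU-E library 1 or 2. Prpf8, the scaffold of the catalytic core, had 1193, 1044 and 1047 CPM in CFU-E, against 924, 907 and 952 CPM in BFU-E. Its groups did not overlap either, but its change of 0.24 (SE 0.096) was not called (edgeR adjusted p = 0.0871). It passed in a fit of the 2 populations alone (0.0193), without a filter on low counts (0.0441) and without MPP library 1 (0.0257). The 11 other PRPF genes had changes of −0.20 (Prpf40b) to 0.39 (Prpf3), and none was called.

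Among the SR genes, 2 of 10 rose. Srsf2, a broadly acting SR protein, had 557, 580.4 and 494 CPM in CFU-E, against 468, 387 and 415 CPM in BFU-E. The groups did not overlap, and the log2 fold change was 0.36 (SE 0.097, edgeR adjusted p = 0.00997). The adjusted p was 0.0704 without BFU-E library 2 and 0.0575 without CFU-E library 2. Srsf11, an SR-related protein, had 303, 257 and 307 CPM in CFU-E, against 237, 226 and 229 CPM in BFU-E, again without overlap. Its change was 0.33 (SE 0.11, edgeR adjusted p = 0.0422), with an adjusted p of 0.0833 to 0.131 without BFU-E library 1, 2 or 3 or CFU-E library 1 or 3. The other 8 SR genes changed by −0.18 (Srsf9) to 0.22 (Srsf10), and none was called.

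Among the hnRNP genes, 2 of 20 were called, both higher. Hnrnpab (chromosome 11, 51600100 to 51606881), an abundant A/B-type hnRNP, had 1775, 1764 and 1578 CPM in CFU-E, against 1343, 1257 and 1229 CPM in BFU-E. The lowest CFU-E library was above the highest BFU-E library, and the log2 fold change was 0.42 (SE 0.068, edgeR adjusted p = 0.000108). Hnrnpul1 (chromosome 7, 25722039 to 25754720), a relative of Hnrnpu, had 705, 851 and 757 CPM in CFU-E, against 574, 549 and 614 CPM in BFU-E. These groups did not overlap (0.41, SE 0.089, edgeR adjusted p = 0.00179). Hnrnpu itself had 2397, 2323 and 2423 CPM in CFU-E, against 2109, 2169 and 2125 CPM in BFU-E, and its change of 0.16 gave an edgeR adjusted p of 0.0532. Hnrnpa2b1, an A/B-type hnRNP, had 1380, 1444 and 1473 CPM in CFU-E, against 1253, 1287 and 1318 CPM in BFU-E (0.16, edgeR adjusted p = 0.0929). Hnrnpm had 914, 856 and 1012 CPM in CFU-E, against 790.4, 800.2 and 818 CPM in BFU-E (0.21, edgeR adjusted p = 0.0636). In these 3 abundant genes every CFU-E library was the higher one, but none passed the threshold. The hnRNP genes not called changed by −0.27 (Hnrnph3) to 0.58 (Hnrnpa1, 98% copied).

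The MBNL genes did not move together. Mbnl1 (chromosome 3, 60501179 to 60629750), a regulator of exon choice with known roles in erythroid precursors, had 982, 1011 and 987 CPM in CFU-E, against 712, 705 and 741 CPM in BFU-E. The CFU-E libraries were tightly grouped above the BFU-E libraries (0.46, SE 0.078, edgeR adjusted p = 0.000141). Mbnl3 had 236, 242 and 209 CPM in CFU-E, against 173, 189 and 189.7 CPM in BFU-E (0.31, edgeR adjusted p = 0.0484), and its adjusted p was 0.0508 to 0.176 without MPP library 3, any 1 of the BFU-E libraries, or CFU-E library 1 or 2. Mbnl2 had 82.2, 56 and 62.7 CPM in CFU-E, against 100.6, 93.1 and 92.2 CPM in BFU-E. All its CFU-E libraries lay below all its BFU-E libraries, so Mbnl2 fell (log2 fold change −0.51, edgeR adjusted p = 0.0303). The adjusted p was 0.0635 to 0.146 without any 1 of the BFU-E libraries or CFU-E library 2 or 3. Rbfox2 had 0, 1.69 and 1.63 CPM in CFU-E, against 2.84, 0.923 and 7.4 CPM in BFU-E, with overlap and no call (−1.77, SE 0.78, edgeR adjusted p = 0.122, and 0.0151 without a filter on low counts). Scaled to total counts, the edgeR adjusted p was 0.0851 for Prpf19, 0.0863 for Srsf11 and 0.104 for Mbnl3, and without a filter on low counts it was 0.0562 for Mbnl3. Sf3a2, Mbnl1, Hnrnpab and Hnrnpul1 were called under all 16 alternative analyses of this comparison, 4 of the 9.

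In BFU-E against MPP, which shares the BFU-E libraries with the comparison above, the splicing factor genes hardly changed. Of 59 genes, 1 was called, a fall, where 4.13% of all genes were called, 2.03% higher and 2.11% lower. The median change was −0.03 (0.00 over all genes), 26 genes lay above 0 (49.8% of all genes), and 8 genes had an unadjusted p under 0.05, against 15.8% of all genes. Every BFU-E library lay above every MPP library in 6 genes (10.5% of all genes) and below in 5 (10.8%). The called gene was Rbfox2 (chromosome 15, 77078990 to 77307053), an RBFOX family gene whose protein is known to switch erythroid exons. It had 2.84, 0.923 and 7.4 CPM in BFU-E, against 36.5, 21.3 and 26.6 CPM in MPP. As raw counts these are 38, 10 and 94 in BFU-E and 470, 123 and 206 in MPP, and the groups did not overlap. The fall of Rbfox2 was −2.91 as a log2 fold change (SE 0.75), with an edgeR adjusted p of 0.0289. The edgeR adjusted p was 0.0786 to 0.132 without BFU-E library 1 or 2 or MPP library 1 or 3, and DESeq2 gave 0.128. No splicing factor gene was then called, except without MPP library 3, where 1 other gene was called higher in BFU-E.

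Mbnl1, Srsf2, Sf3b1, Prpf8 and U2af1 were not called in this comparison. Mbnl1 had 712, 705 and 741 CPM in BFU-E, against 768, 761 and 662 CPM in MPP, with overlapping groups and a change of −0.02. Srsf2 had 468, 387 and 415 CPM in BFU-E, against 384, 362 and 344 CPM in MPP. These groups did not overlap, but the change of 0.22 (SE 0.098) had an edgeR adjusted p of 0.263. The MPP libraries of Sf3b1 had 560, 607 and 467 CPM, those of Prpf8 1056, 769 and 823 CPM and those of U2af1 10.4, 22.8 and 20.5 CPM, and in each gene they overlapped with the BFU-E libraries given above. Prpf40b, a relative of a yeast U1 snRNP protein, had 14, 29.2 and 22.6 CPM in BFU-E, against 31.3, 58.7 and 31.2 CPM in MPP, a change of −0.88 that was not called (edgeR adjusted p = 0.154).

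**Figure D3:**
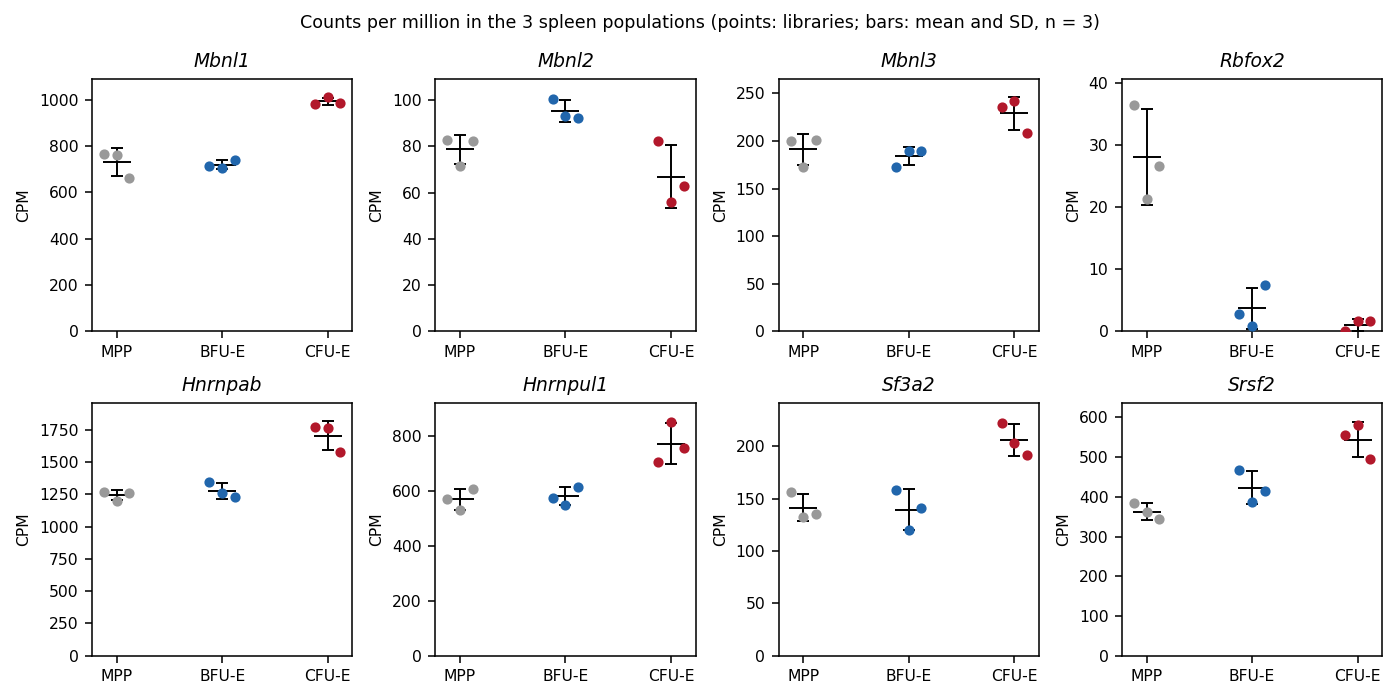
CPM of 8 splicing factor genes in the spleen populations (points are libraries, bars the mean and SD of 3). Mbnl1, Mbnl3, Hnrnpab, Hnrnpul1 and Sf3a2 are similar in MPP and BFU-E and higher in CFU-E, Mbnl2 has its lowest mean in CFU-E, and Rbfox2 is at 21.3 to 36.5 CPM in MPP and at 7.4 CPM or less in the other libraries.

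In CFU-E against MPP, 19 of the 59 genes were called (32.2%), 16 higher and 3 lower. Of all genes, 28.8% were called, 12.7% higher and 16.0% lower. The median change was 0.15, against 0.00 over all genes. In 20 genes every CFU-E library lay above every MPP library and in 6 below (19.1% and 21.2% of all genes). The CFU-E libraries are those of the first comparison and the MPP libraries those of the second, so this is not a separate line of data.

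The largest rise was that of Prpf19, with 256, 254 and 220.5 CPM in CFU-E, against 136, 192 and 149 CPM in MPP (0.62, SE 0.13, edgeR adjusted p = 0.00097). Srsf2 followed, with 557, 580.4 and 494 CPM in CFU-E, against 384, 362 and 344 CPM in MPP (0.58, edgeR adjusted p = 0.000111). In both genes the groups did not overlap. Sf3a2 had 223, 203 and 192 CPM in CFU-E, against 156, 133 and 135 CPM in MPP (0.54, edgeR adjusted p = 0.00274). Hnrnpab had 1775, 1764 and 1578 CPM in CFU-E, against 1265, 1199 and 1264 CPM in MPP (0.46, edgeR adjusted p = 2.88e-05). For both, the whole CFU-E range again lay above the MPP range. Mbnl1 had 982, 1011 and 987 CPM in CFU-E, against 768, 761 and 662 CPM in MPP (0.44, edgeR adjusted p = 0.000182). Hnrnpul1 had 705, 851 and 757 CPM in CFU-E, against 568, 531 and 607 CPM in MPP (0.44, edgeR adjusted p = 0.000816). Neither gene showed an overlap.

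Among the 10 largest rises, those of Hnrnpll, Prpf18, U2af2 and Hnrnpc lost their call without single libraries. Hnrnpll, known for directing exon choice of CD45 in lymphocytes, had 117, 120.4 and 122 CPM in CFU-E, against 97.1, 63.2 and 83.8 CPM in MPP (0.55, edgeR adjusted p = 0.0112, and 0.0523 without MPP library 2). Prpf18, a factor of the second catalytic step, had 77.3, 67.3 and 72.1 CPM in CFU-E, against 47.7, 49.2 and 57.4 CPM in MPP (0.49, edgeR adjusted p = 0.0353, and 0.069 to 0.115 without CFU-E library 1 or 3 or MPP library 1 or 2). Their groups did not overlap. U2af2, the large U2AF subunit, had 148, 160.4 and 169.7 CPM in CFU-E, against 99.2, 118 and 138 CPM in MPP (0.43, edgeR adjusted p = 0.0215, and 0.0515 to 0.118 without CFU-E library 2 or 3 or MPP library 1). Hnrnpc, which binds uridine tracts, had 250.3, 250.3 and 296 CPM in CFU-E, against 211, 199.7 and 207 CPM in MPP (0.37, edgeR adjusted p = 0.0132, and 0.0719 without CFU-E library 3). Both are among the genes with copies, at 97.5% and 55.4% of their transcripts. The 6 smaller rises, 0.31 to 0.36, were those of Sf3a3, Prpf4b, Hnrnpk, Sf3b3, Hnrnpa0 and Prpf8. Of these, Sf3b3 was the only one called under all 16 alternatives, with 611, 588 and 543 CPM in CFU-E, against 509, 439 and 439 CPM in MPP. The other 5 lost their call without single libraries. The edgeR adjusted p was then 0.0876 to 0.124 for Sf3a3 (CFU-E 2 or 3, MPP 1 or 3), 0.0882 to 0.184 for Hnrnpk (CFU-E 1, MPP 2), 0.0801 for Prpf4b (CFU-E 3), 0.0568 to 0.072 for Hnrnpa0 (CFU-E 2, MPP 3) and 0.0763 to 0.107 for Prpf8 (CFU-E 1, MPP 2 or 3). In a fit of CFU-E and MPP alone, it was 0.0619 for Prpf18, 0.0571 for Sf3a3, 0.0528 for Hnrnpk and 0.0507 for Hnrnph3.

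The 3 genes that fell were Rbfox2, Prpf40b and Hnrnph3. Rbfox2 had 0, 1.69 and 1.63 CPM in CFU-E (0, 20 and 16 counts), against 36.5, 21.3 and 26.6 CPM in MPP. Its log2 fold change was −4.68 (SE 0.83, edgeR adjusted p = 0.000215), a call kept under all 16 alternatives. Prpf40b had 13.2, 23.3 and 20.6 CPM in CFU-E, against 31.3, 58.7 and 31.2 CPM in MPP (−1.08, edgeR adjusted p = 0.0159, 0.0849 without CFU-E library 1 and 0.123 without MPP library 2). Hnrnph3 had 52.2, 68.8 and 66.2 CPM in CFU-E, against 81.7, 85.5 and 94.5 CPM in MPP (−0.48, edgeR adjusted p = 0.0278, 0.137 without CFU-E library 1 and 0.0993 without MPP library 3). The groups of each gene did not overlap. Exons of Rufy2 on the other strand cover 63.5% of Hnrnph3, and the counting strand is not stated, so reads of the pair cannot be told apart. The same holds for Srsf4 and Gm12992 (68.8%). In all, 8 of the 19 calls held under all 16 alternatives: Hnrnpab, Hnrnpul1, Mbnl1, Prpf19, Rbfox2, Sf3a2, Sf3b3 and Srsf2. Of the genes named for their link to myelodysplastic syndromes, Sf3b1 (0.16, edgeR adjusted p = 0.231) and U2af1 (0.04, edgeR adjusted p = 0.949) were not called, and U2af1 turned to −0.20 without CFU-E library 3 and to −0.25 without MPP library 1.

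Spleen BFU-E were then set against BM BFU-E, the comparison of stress with steady state. None of the 59 genes was called by edgeR, where 0.112% of all 10702 genes were. Higher calls were 0.00934% and lower calls 0.103% of all genes. The coefficient of variation between libraries beyond counting error was 0.704 in this table, against 0.25 among the spleen libraries. On simulated data this fit recovered 0 of 67 genes changed 2-fold and 19 of 66 changed 4-fold, so such changes can be missed. An unadjusted p under 0.05 was found for 11 genes, 3 higher and 8 lower in spleen, where 9.84% of all genes were at that level, 3.83% higher and 6.01% lower. The median change was −0.03, against 0.01 over all genes, 26 of 59 genes lay above 0 (50.7% of all genes), and the libraries of the populations did not overlap in 7 genes higher and 7 genes lower in spleen (12.8% and 9.08% of all genes).

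The smallest p among the genes higher in spleen was that of Srsf1, the prototype SR protein gene. It had 660.5, 619.5 and 692 CPM in spleen BFU-E, against 433, 445 and 475 CPM in BM BFU-E. The groups were well apart (log2 fold change 0.54, SE 0.13), with an unadjusted p of 0.0026 and an adjusted p of 0.234 in edgeR, and DESeq2, which called 6.40% of all genes and 2 of the 59, called it with an adjusted p of 0.00017. Srsf6 had 372, 408 and 393 CPM in spleen BFU-E, against 328, 307 and 266 CPM in BM BFU-E (0.38, edgeR adjusted p = 0.446). Hnrnpc had 223, 248 and 217 CPM in spleen BFU-E, against 182, 179.6 and 129 CPM in BM BFU-E (0.49, edgeR adjusted p = 0.458). Neither gene showed an overlap between populations.

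On the lower side, Hnrnpr had 184, 203 and 185 CPM in spleen BFU-E, against 324, 229.8 and 272 CPM in BM BFU-E. The groups did not overlap (−0.53, SE 0.18, edgeR adjusted p = 0.381, and 0.0334 in DESeq2). Sf3a2 had 160.2, 122 and 143 CPM in spleen BFU-E, against 194, 189.8 and 242 CPM in BM BFU-E, also without overlap (−0.56, edgeR adjusted p = 0.388). Hnrnpdl had 310.3, 324 and 286 CPM in spleen BFU-E, against 508, 317 and 609 CPM in BM BFU-E (−0.64, edgeR adjusted p = 0.421), and BM library 2 lay within the spleen range.

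The genes followed across the spleen stages were not called here, and the BM libraries spread more widely than the spleen libraries in each except Sf3b1. Mbnl1 had 721, 718 and 754 CPM in spleen BFU-E, against 692, 636 and 504 CPM in BM BFU-E, without overlap (0.26, edgeR adjusted p = 0.650). Rbfox2 had 2.88, 0.939 and 7.53 CPM in spleen BFU-E, against 23.3, 0.25 and 3.04 CPM in BM BFU-E, so that a single BM library was high. Its change was −1.23 with all libraries and 1.21 without BM library 1. Srsf2 had 474, 394 and 422 CPM in spleen BFU-E, against 185, 481 and 203 CPM in BM BFU-E (0.57, edgeR adjusted p = 0.672). Prpf8 had 936, 923 and 969 CPM in spleen BFU-E, against 936, 732 and 492 CPM in BM BFU-E (0.39, edgeR adjusted p = 0.638), and both genes overlapped between populations. Sf3b1 was at 550.1, 520.5 and 519 CPM in spleen BFU-E, against 562, 532 and 536 CPM in BM BFU-E, a change of −0.04 (SE 0.12). U2af1 had 19.2, 14 and 15.5 CPM in spleen BFU-E, against 11.9, 20.4 and 9.13 CPM in BM BFU-E, with overlapping groups. The 7 erythroid markers of this table summed to 642 to 711 CPM in spleen BFU-E, against 422 to 610 CPM in BM BFU-E, and the 7 stem cell markers to 463 to 488 CPM in spleen BFU-E, against 615 to 822 CPM in BM BFU-E, both without overlap. Myeloid markers summed to 703 to 829 CPM in spleen BFU-E, against 780 to 1970 CPM in BM BFU-E, and the 3 macrophage markers of this table to 2.72 to 10.6 CPM in spleen BFU-E, against 26.5 to 73.2 CPM in BM BFU-E. The part of these markers in the differences was not tested.

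**Figure D4:**
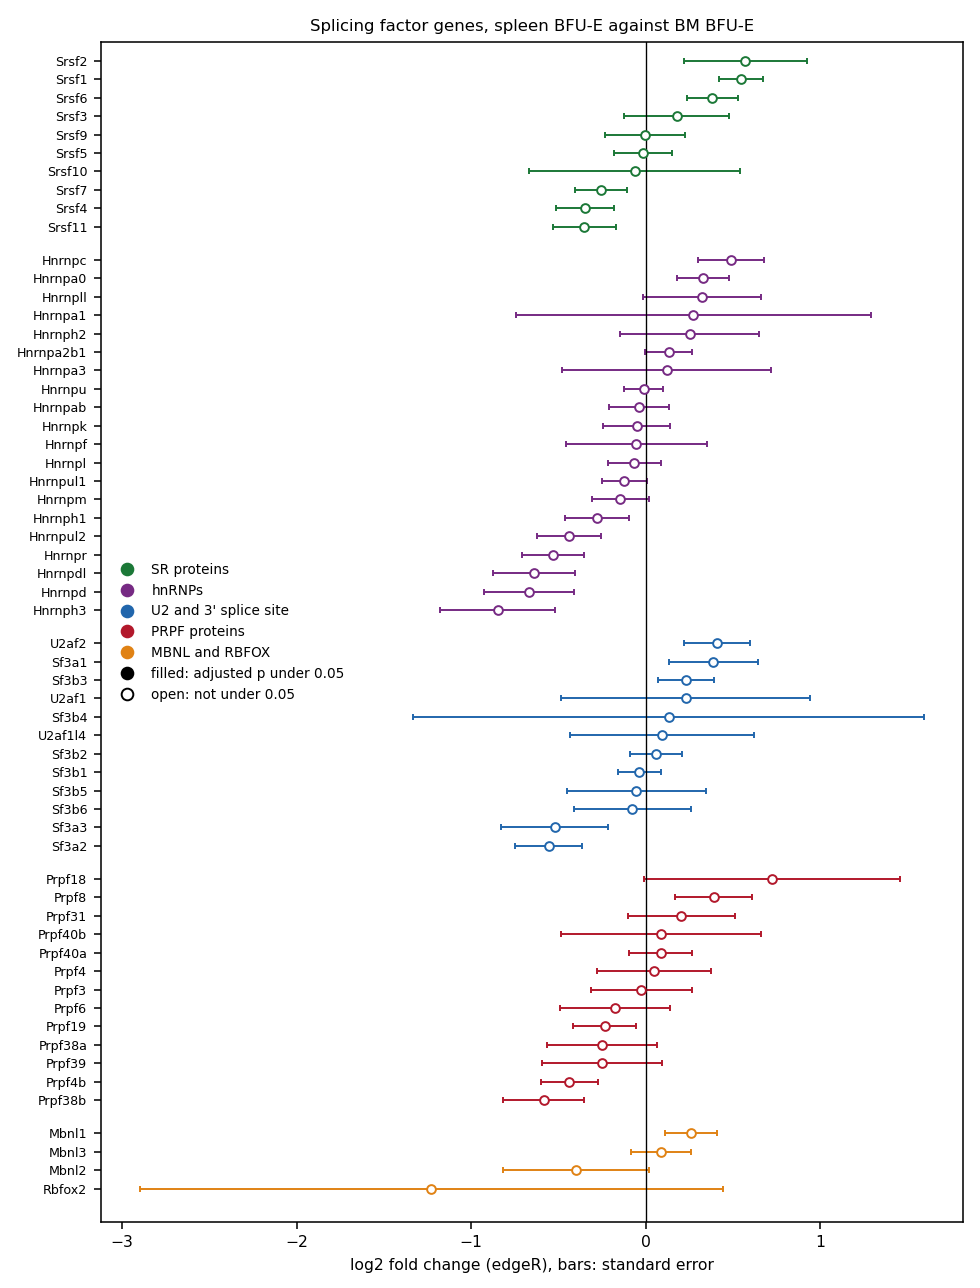
Change of each tested gene in spleen BFU-E against BM BFU-E, as log2 fold change with its standard error (3 libraries each), by class. No point passed an adjusted p of 0.05, and the bars are wider than between the spleen populations, most of all for Rbfox2, Sf3b4 and Hnrnpa1.

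Summed over the 62 genes and scaled to all counts of a library, splicing factor RNA made up 22060, 21230 and 21420 CPM in CFU-E, against 19510, 19210 and 19450 CPM in BFU-E. CFU-E lay above BFU-E in every library, by 0.15 on the log2 scale (21570 ± 435 against 19390 ± 159 CPM, SD, n = 3 each). MPP libraries had 18790, 18360 and 16850 CPM, and the difference of 0.11 between BFU-E and MPP disappeared (−0.02) when Rn45s, which took most in MPP, was left out of the totals. The difference between CFU-E and MPP was 0.26 on all counts and 0.15 without Rn45s. The sums of all 5 classes were higher in CFU-E than in BFU-E on average. The differences were 0.32 for MBNL and RBFOX, 0.19 for PRPF, 0.15 for hnRNP, 0.13 for U2 and U2AF and 0.10 for SR genes. The libraries overlapped only for the U2 and U2AF genes. Mbnl1 made up 993 of the 1284 CPM of its class in CFU-E (TMM-scaled sizes). Of the 4 MBNL and RBFOX genes tested, 2 lay above 0 and 2 below, with a median of −0.1. Between spleen and BM BFU-E the sums were 19600, 19300 and 19530 CPM in spleen, against 20390, 16780 and 20670 CPM in BM, with overlap and a log2 ratio of 0.02. By class, the sums of the SR genes (0.21) and the MBNL and RBFOX genes (0.20) lay above BM without overlap. Those of the U2 and U2AF (0.09), PRPF (0.04) and hnRNP genes (−0.06) overlapped. Most single genes did not follow the higher sums. Of 10 SR genes tested, 4 lay above 0 (median −0.01), and of 4 MBNL and RBFOX genes, 2 did (median −0.16). These class differences were not tested.

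Other genes of the splicing machinery were counted in CFU-E against BFU-E by list, where 9.17% of all genes were called higher and 11.9% lower. Of 30 snRNP protein genes, 2 rose, Snrpa1 of the U2 particle (139.7 ± 12.7 against 98.5 ± 5.65 CPM, 0.50) and Snrnp200, the U5 helicase (0.24). Of 12 spliceosomal helicase genes, 2 rose, Ddx39, which also serves mRNA export (244 ± 27.2 CPM in CFU-E against 142 ± 5.53 CPM in BFU-E, 0.78), and Dhx8, which releases the spliced mRNA (0.54). Of 20 genes of the Prp19 complex and activation, Aqr rose (0.39). Of 10 genes for SR protein kinases and import, Srpk1 rose (0.38). Of 19 SR-related coactivators, 5 rose (26.3%), led by Luc7l (0.38), Scaf1 (0.38) and Acin1 (0.33). Of 10 minor spliceosome genes, Zcrb1 rose (0.78), and none of 15 genes of the exon junction complex and nonsense-mediated decay was called by edgeR, with 1 at an unadjusted p under 0.05. In CFU-E against MPP, 12.7% of all genes were called higher and 16.0% lower. There, 4 of 30 snRNP, 4 of 12 helicase, 3 of 19 SR-related and 2 of 15 exon junction genes rose. Of 20 genes of the Prp19 list, 2 rose and 1 fell. None of the 10 kinase and import genes and none of the 10 minor spliceosome genes was called by edgeR.

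Of 35 other splicing regulators, 5 were called higher and 2 lower in CFU-E against MPP, 20% in all, where 28.8% of all genes were called. In CFU-E against BFU-E, 1 was called higher and 4 lower, 14.3% in all, where 21.1% of all genes were called. None of these lists was tested against all genes. Syncrip rose (0.30). Celf2, which binds GU-rich elements, fell to 126 ± 16.5 CPM in CFU-E, against 283 ± 7.05 CPM in BFU-E (−1.17, SE 0.12, edgeR adjusted p = 3.31e-07). Rbmx (−0.56) and Ptbp3 (−0.46), a polypyrimidine tract binder found in blood cells, fell as well. Rbm38, a regulator known to switch erythroid exons, had 108, 114 and 105 CPM in CFU-E, against 170, 168 and 152 CPM in BFU-E. All CFU-E libraries lay below (−0.58, edgeR adjusted p = 0.00331). Against 126, 93 and 128 CPM in MPP, the BFU-E libraries were higher (0.50, edgeR adjusted p = 0.041), while CFU-E and MPP overlapped (−0.09). In the BFU-E table it had 172, 171 and 155 CPM in spleen BFU-E, against 330.3, 255 and 456 CPM in BM BFU-E, a difference without overlap that was not called (−1.07, edgeR adjusted p = 0.210).

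Some splicing factor genes control their own output through exons whose inclusion exposes the transcript to nonsense-mediated decay or alters the protein. For a few genes the deposited counts and RPKM were made over different transcripts of the same gene, so reads over the exon that separates them could be recovered by subtraction. The cassette exons of Srsf3 (456 bases) and Srsf7 (460 bases) are shown because each brings an in-frame stop, 32 and 26 bases into the exon. An exon of Srsf9 (90 bases) also brings such a stop, 9 bases in. It held at most 25 reads in any spleen library and was not tested. Each sequence shown (GRCm38.p6) starts with 20 intron bases. Capitals mark the AG that ends the intron and the first in-frame stop.
Srsf3 (chr17:29039434-29039513, plus strand): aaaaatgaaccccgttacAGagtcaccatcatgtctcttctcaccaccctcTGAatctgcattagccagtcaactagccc
Srsf7 (chr17:80205052-80205101, minus strand): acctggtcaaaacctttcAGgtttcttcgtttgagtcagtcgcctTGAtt
The alternative exons of Hnrnpab (141 bases) and Hnrnpa2b1 (120 bases) are a multiple of 3 long and carry no stop in frame, so they change the protein without ending it. They are shown with the last 2 bases of the intron before and the first 2 of the intron after in capitals.
Hnrnpab (chr11:51601748-51601892, minus strand): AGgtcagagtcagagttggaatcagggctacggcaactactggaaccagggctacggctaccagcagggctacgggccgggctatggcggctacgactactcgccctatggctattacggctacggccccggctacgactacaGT
Hnrnpa2b1 (chr6:51464426-51464549, minus strand): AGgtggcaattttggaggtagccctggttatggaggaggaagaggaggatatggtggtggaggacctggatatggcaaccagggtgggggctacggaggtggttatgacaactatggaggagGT

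The reads per base of each segment were divided by the reads per base of the rest of the transcript, which gives a relative coverage and not an inclusion level. For the Hnrnpab exon it was 102%, 95.4% and 91.5% in MPP, 98%, 97.6% and 99.1% in BFU-E and 115%, 115% and 118% in CFU-E. Every CFU-E library lay above the other spleen libraries, from 369 to 1455 reads per library. The limma log2 change was 0.24 (SE 0.42, adjusted p = 0.948) against BFU-E and 0.27 (SE 0.42, adjusted p = 0.963) against MPP. As limma shares variance across segments, these SEs are wider than the spread of the Hnrnpab libraries. The adjusted p therefore does not measure that spread alone. For the Srsf3 exon it was 207%, 157% and 146% in MPP, 128%, 183% and 205% in BFU-E and 83.2%, 154% and 137% in CFU-E, all overlapping. Copies cover 64.4% of the Srsf3 transcript, and their part in values above 100% was not tested. The Hnrnpab exon in CFU-E was also above 100%, with 0% of that transcript in a copy. For the Srsf7 exon it was 38.6%, 39.5% and 29.5% in MPP, 35.6%, 32.4% and 42% in BFU-E and 36%, 54.7% and 50% in CFU-E. For the Hnrnpa2b1 exon it was 12.8%, 31.3% and 30.1% in MPP, 24%, 30.1% and 26.1% in BFU-E and 20.8%, 37.6% and 29.4% in CFU-E. The groups of both overlapped.

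Segments of Srsf1, Srsf5, Hnrnpc and Hnrnpm could be followed in the same way. That of Srsf1 (196 bases, part of an exon) had 28.9%, 79.3% and 76.5% in MPP, 64.2%, 57.1% and 37.2% in BFU-E and 38.4%, 23.2% and 13.2% in CFU-E. The CFU-E and BFU-E values overlapped, and the change of −1.17 (log2, SE 0.78) was not called (limma adjusted p = 0.948). In all, none of the 8 genes was called in any of the 3 spleen comparisons, as none of the 369 segments tested across all genes was (0.00% in each). On simulated segments this test recovered 8 of 30 changed 2-fold and 28 of 30 changed 4-fold, with 3 false calls. Changes of 2-fold can thus be missed. The simulation gave every segment the same set spread, which was not taken from these libraries. In these data the limma SEs of the 8 genes ran from 0.37 (Srsf3) to 0.80 (Srsf5). Larger changes, also of 4-fold, may therefore be missed too. At an unadjusted p under 0.05 none of the 8 stood either, where 2.71%, 4.61% and 5.42% of segments did in CFU-E against BFU-E, BFU-E against MPP and CFU-E against MPP. Groups did not overlap in 7.86%, 8.94% and 7.32% of all segments, and among the 8 genes only in Hnrnpab, in CFU-E against BFU-E and against MPP. Subtraction has its own error: for Prpf19, which was not tested, the shorter transcript held more reads than the longer one in a few libraries.

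**Figure D5:**
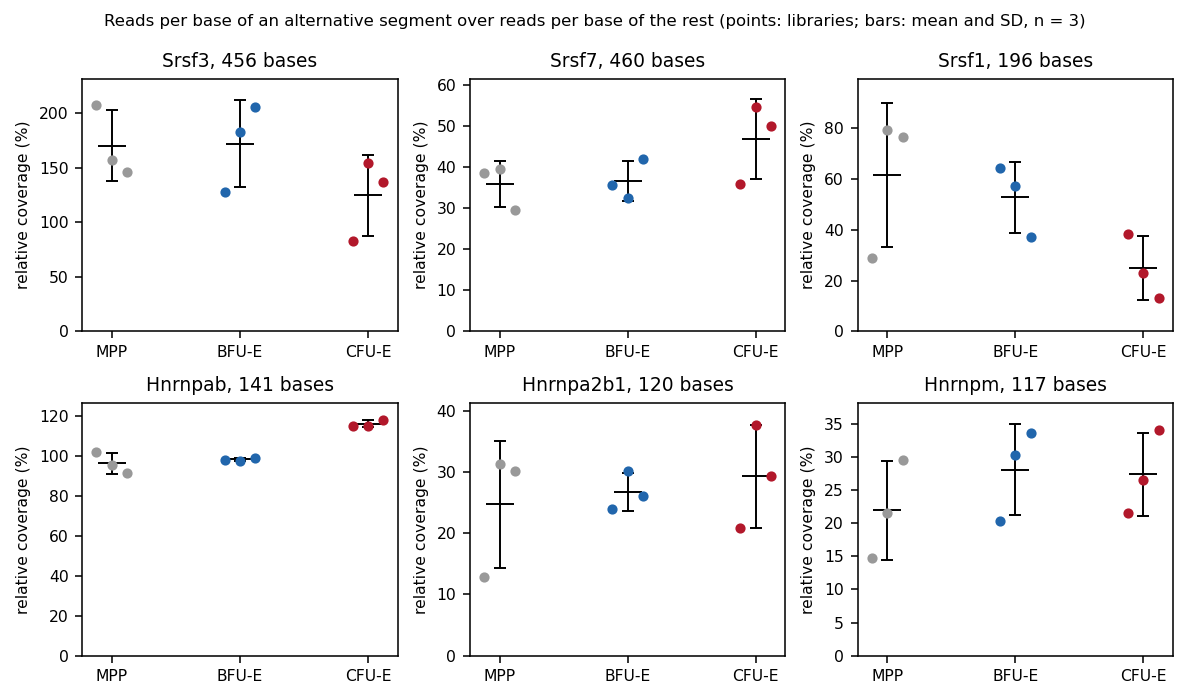
Relative coverage of an alternative segment in percent (reads per base of the segment over reads per base of the rest of the transcript) in the spleen populations, with points for libraries and bars for the mean and SD of 3. The Hnrnpab exon lies at 115% to 118% in CFU-E and at 91.5% to 102% in the other libraries, and the remaining segments overlap between populations.

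In BM libraries 1 and 3, whose count and RPKM columns carry the same names, the relative coverage stood apart from that of spleen BFU-E for several exons. The Hnrnpa2b1 exon had 24%, 30.1% and 26.1% in spleen BFU-E, against 124% and 107% in BM BFU-E. The Hnrnpab exon had 98%, 97.6% and 99.1% in spleen BFU-E, against 32.8% and 3.93% in BM BFU-E. The Srsf5 segment had 24.6%, 30.8% and 29.6% in spleen BFU-E, against 244% and 224% in BM BFU-E. So, of the 6 splicing factor genes with enough segment reads, 1 was higher and 2 were lower in spleen without overlap, where 45.7% of all 341 such segments were higher and 5.57% lower. The Srsf1 segment had 64.2%, 57.1% and 37.2% in spleen BFU-E, against 17.2% and 0% in BM BFU-E, also without overlap. It is left out of these counts because in BM library 3 its shorter transcript held more reads than the longer one. The segments of Hnrnpm and Hnrnpc overlapped. The Srsf7 exon had 35.6%, 32.4% and 42% in spleen BFU-E, against 117% and 0% in BM BFU-E, so the BM libraries went opposite ways. These differences were not tested, BM libraries 1 and 3 are those with the most genes at 0 counts, and the part of that in the differences was not tested.

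Open chromatin at the start sites of these genes was present in both BFU-E populations, for which the authors deposited a single merged ATAC-seq peak list each, so there is no replicate. A peak within 1 kb of the start was found for 60 of 62 genes (96.8%) in the spleen list, where 59.0% of all 24072 genes had one, and for 59 of 62 (95.2%) in the BM list, where 52.1% had one. Among genes with a mean of 50 counts, all 59 had a promoter peak in both lists, against 95.1% of genes at that level in the spleen list and 91.5% in the BM list. Rbfox1 and Rbfox3 had none in either list and Srsf12 none in the BM list. The spleen list is longer, 61661 intervals against 35142, and it had 28 intervals nearest to Mbnl1 where the BM list had 5, 16 for Mbnl2 where the BM list had 6, and 7 for Rbfox2 where the BM list had 3. Mbnl3 and Hnrnpab had 1 in each list. Rbfox2 kept a promoter peak in both lists at 0.939 to 7.53 CPM in spleen BFU-E.

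The promoters of Hnrnpab and Prpf19 are shown because both genes rose in CFU-E, each has a promoter peak, and each holds a match to the ETS motif. The 250 bases before the start are from RefSeq on GRCm38.p6, with motif matches in capitals.
Hnrnpab (chr11:51606882-51607131, minus strand): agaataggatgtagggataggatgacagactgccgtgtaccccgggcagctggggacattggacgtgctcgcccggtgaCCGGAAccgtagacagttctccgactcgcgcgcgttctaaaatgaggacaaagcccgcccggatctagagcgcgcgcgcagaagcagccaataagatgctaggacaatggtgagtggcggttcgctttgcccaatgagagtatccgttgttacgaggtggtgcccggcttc
Prpf19 (chr19:10894981-10895230, plus strand): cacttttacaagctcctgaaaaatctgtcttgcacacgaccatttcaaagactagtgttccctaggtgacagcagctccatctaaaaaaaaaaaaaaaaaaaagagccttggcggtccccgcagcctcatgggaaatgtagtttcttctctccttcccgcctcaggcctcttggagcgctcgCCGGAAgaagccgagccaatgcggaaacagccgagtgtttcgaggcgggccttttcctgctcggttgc
The motifs below were searched on both strands in the promoters of the 54 genes found in the RefSeq table. The ETS letters CCGGAA were in 22 of 54 (40.7%), in 12.2% of all 27025 promoters and in 25.0% of the 7832 promoters of tested genes. The KLF letters CCNCNCCC were in 36 (66.7%), in 45.6% of all promoters and in 64.5% of those of tested genes. The GATA letters AGATAA were in 3 (5.56%; Hnrnpf, Sf3b3 and Hnrnph2), in 10.3% of all promoters and in 5.52% of those of tested genes. Among the genes called in CFU-E against BFU-E, the promoters of Hnrnpab, Prpf19, Sf3a2, Srsf2 and Srsf11 held an ETS match. Those of Mbnl1, Mbnl2, Mbnl3 and Hnrnpul1 did not. A match describes the letters and not a bound factor.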

How the data were processed

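RNA was sequenced with a stranded total RNA kit from sorted progenitors, in 9 spleen and 3 bone marrow libraries. Per the submitters' processing notes, reads were aligned with STAR 2.6.0b-1, and HOMER 4.8 was used with build mm10. Per the file headers, the count tables were made by the authors with HOMER as raw counts over the exons of 1 transcript per gene, and the deposited table of both BFU-E populations keeps genes with a mean of 50 counts. The strand setting is not given in the sources used here. The RPKM values were made by the authors with HOMER, as reads per kilobase of exon scaled to mapped reads, and each deposited table was normalised on its own. Spleen RPKM came from the table of 12 libraries and bone marrow RPKM from the BFU-E table, in which 1 bone marrow column has a name that gives no sample number. The bone marrow columns of the table of 12 libraries were not used: turned back into reads, 0.616% to 2.22% of genes came within 0.5 of a read of the deposited bone marrow counts, where all 3 spleen BFU-E columns did for nearly 100% of genes. Which of the bone marrow columns hold the labelled libraries was not settled, and all bone marrow values here come from the BFU-E tables. The ATAC-seq peak lists were deposited with a peak score and the distance to the nearest start site, as 1 merged list per population.

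Counts were tested with edgeR 4.0.16 in R 4.3.3 (quasi-likelihood test, TMM, Benjamini-Hochberg adjustment over all genes tested, threshold 0.05). The spleen fit held all 9 libraries and the 10166 genes with a mean of 50 counts. The bone marrow comparison was fitted on the BFU-E table alone. The standard error is the log2 fold change divided by the root of the F statistic. Alternatives were DESeq2 1.42.0 (with a local dispersion trend on the BFU-E table), other scalings and filters, and leaving out each library. The fits were tested on simulated data. For CFU-E against BFU-E, edgeR recovered 17 of 67 genes changed 1.5-fold, 39 of 67 changed 2-fold and 56 of 66 changed 4-fold. For spleen against bone marrow BFU-E it recovered 0 of 67, 0 of 67 and 19 of 66. Segment reads are the difference between reads counted over a longer transcript and reads recovered from RPKM over a shorter one, and were tested with limma 3.58.1 on log2 of (segment reads + 0.5) over (rest + 0.5), for segments with a mean of 10 reads. Copies were found with blastn 2.17.0.

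The genes given per library were all called genes in a spleen comparison up to 10 in each direction, the 5 with the highest RPKM, the 3 with the smallest p in each direction between spleen and bone marrow, and Sf3b1, Srsf2, U2af1, Prpf8, Mbnl1 and Rbfox2. The members, gene lists and tests were chosen with earlier results of these data known, and the segment, copy, promoter and motif analyses were added after the files had been seen.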

Additional observations from a re-analysis of the deposited data

How the results depend on the processing

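The count of called splicing factor genes in CFU-E against BFU-E, 9, was 14 with DESeq2, with the compared populations alone and with protein-coding genes only. It was 4 to 11 when single libraries were left out, where 1630 to 2339 genes were called in all, against 2145 in the main fit. In BFU-E against MPP the count was 1, was 0 with DESeq2 and 0 to 1 without single libraries. Without MPP library 3 the called gene was not Rbfox2 but another gene, which was higher in BFU-E. Over all genes, 420 were called in the main fit, 619 with DESeq2 and 225 to 462 without single libraries. Between spleen and BM BFU-E the count was 0, and 2 with DESeq2, which called 685 genes in all. In CFU-E against MPP it was 19 and ranged from 14 to 22 over the alternatives. Over all genes, 2924 were called in the main fit and 2342 to 3402 over the alternatives. The difference in summed CPM between CFU-E and BFU-E was 0.196 (log2) on TMM-scaled sizes, that between BFU-E and MPP −0.018 without Rn45s and −0.003 on TMM-scaled sizes, and that between CFU-E and MPP 0.148 and 0.193 on these scales; the cause beyond the scaling was not tested.

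Uncalled changes turned sign when single libraries were left out, as ranges over those alternatives. U2af1 ranged from −0.043 to 0.338 in CFU-E against BFU-E, from −0.245 to 0.253 in CFU-E against MPP (−0.203 without CFU-E 3) and from −0.44 to 0.055 in BFU-E against MPP. In BFU-E against MPP, Mbnl1 ranged from −0.084 to 0.015 (0.009 without MPP 2, and 0.086 on total counts), Prpf8 from −0.018 to 0.219 and Sf3b1 from −0.157 to 0.023 (0.045 on total counts). Between spleen and BM BFU-E, Rbfox2 ranged from −2.201 to 1.205 (0.232 with a replicate block), and Sf3b1 was 0.015 on total counts. Total-count scaling moved the median of all genes by 0.109 in BFU-E against MPP.

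Libraries share numbers between populations, but no label says that a number marks a shared source. The deviations of same-numbered libraries correlated at 0.015 to 0.134 among the spleen populations, positive in all 9 pairs and over 0.1 in 2. Those of differently numbered spleen libraries correlated at −0.093 to 0.03. Between spleen and BM BFU-E, same-numbered libraries correlated at −0.034 to −0.022. As no label gives a shared source, the main fits left the libraries unpaired, and a shared source was not tested. With the number as a block, 10, 1 and 20 splicing factor genes were called in CFU-E against BFU-E, BFU-E against MPP and CFU-E against MPP, and 0 between spleen and BM BFU-E. In the same order, 21.8%, 4.68%, 29.2% and 0.0280% of all genes were called. In CFU-E against BFU-E the block brought in Prpf8 (edgeR adjusted p = 0.0458) and lost Mbnl3 (0.0535). Few or no counts limit what can be said of Rbfox1, Rbfox3 and Srsf12, and of Rbfox2 in spleen BFU-E and CFU-E.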
